A study of Saccharomyces cerevisiae with 12 samples.

Results

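The 42 nuclear genes of the yeast respiratory chain and ATP synthase were compared across 4 groups of *S. cerevisiae* cultures. They were taken by systematic name from a count table of 7108 named genes and comprise 4 genes of succinate dehydrogenase, 3 of the NADH dehydrogenases, 9 of complex III, 2 of cytochrome c, 9 of complex IV and 15 of ATP synthase. RNA was sequenced from 3 libraries per group, from cells growing exponentially in the glucose medium YPD. WT is strain MHY1379, which the study describes as *ulp2Δ* cells carrying *ULP2* on a plasmid, so the chromosomal deletion is common to all 4 groups. Nascent *ulp2Δ* cells are MHY1379 that lost the plasmid, and the evolved lines 6 and 9 are *ulp2Δ* cells after 500 generations. In the study's scheme, cells that lost the plasmid were then transformed with the vector alone or with *ULP2*, and they grew further during these steps. Ulp2 is a protease that shortens chains of the small modifier protein SUMO. Each evolved line is a single line, so its 3 libraries do not replicate the evolution, and the labels do not say that the libraries of a group came from separate cultures. The *p*-values therefore measure the spread between libraries, which may be technical. The study describes its evolved lines by their Uba2 genotype, which the labels do not tie to a line number.

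Mitochondrial respiration passes electrons from NADH and succinate through complex III and cytochrome c to complex IV, which reduces oxygen, and ATP synthase uses the resulting proton gradient. Budding yeast has no complex I. Ndi1, inside the mitochondrion, and Nde1 and Nde2, on the outer face of the inner membrane, oxidize NADH instead. Nearly all subunits are encoded in the nucleus, and a few are encoded by mitochondrial DNA. In glucose the nuclear genes are held low, and the Hap2/3/4/5 complex, which binds CCAAT, activates them, with Hap4 as the regulated subunit. *COX5B* and *CYC7* encode the forms of a complex IV subunit and of cytochrome c that are used when oxygen is low.

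The libraries held 20467216 to 30719553 counts on named genes each. The deleted gene *ULP2* had 8519 to 10694 counts in the WT libraries and 3 to 20 in each of the other 9 libraries. Levels are given as CPM, the usual depth-normalized count, with library sizes scaled by edgeR's TMM method. All 42 genes passed the filter on low counts, and 6372 genes were tested. In nascent *ulp2Δ* cells the 502 tested genes of chromosome XII had a median log2 fold change of 0.69 against WT and the 87 of chromosome I one of 0.68. The 5870 tested genes not placed on chromosome XII had a median of -0.07. They include the genes of chromosome I and IDs without a position in the annotation. *ATP14*, *COX8*, *COX12* and *SDH2* lie on chromosome XII, and none of the 42 lies on chromosome I.

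The CCAAT pentamer was common before these genes. It was searched on both strands in 300 bases, from 250 before the start codon to 50 after it, of the R64 (sacCer3) genome. It was found in 35 of the 42 windows, 83.3%, against 43.3% of the 6001 windows of all genes. The count was 14 of 15 for ATP synthase, 8 of 9 for complex IV, 7 of 9 for complex III, 2 of 3 for the NADH dehydrogenases, 4 of 4 for succinate dehydrogenase and 0 of 2 for cytochrome c. A match of the letters is not a binding site, and the lack of a match in this window does not show that a gene lacks a site. The following stretches of 31 bases show the match farthest from the start codon in the member of each complex that fell most in nascent *ulp2Δ* cells among those whose match has room for flanks on both sides, 5′ to 3′ on the strand of the gene, with CCAAT or its reverse complement ATTGG in capitals.
ATP7 (chrXI:408192-408222, minus strand): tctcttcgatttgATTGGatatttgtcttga
COX5A (chrXIV:531542-531572, plus strand): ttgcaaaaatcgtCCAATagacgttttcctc
QCR2 (chrXVI:919183-919213, plus strand): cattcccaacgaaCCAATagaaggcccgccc
NDI1 (chrXIII:30017-30047, minus strand): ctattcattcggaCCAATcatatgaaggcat
SDH3 (chrXI:179507-179537, plus strand): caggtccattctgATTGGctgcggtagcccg

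In nascent *ulp2Δ* cells, 40 of the 42 genes were lower than in WT and 2, *COX5B* and *CYC7*, were higher (adjusted *p* under 0.05, quasi-likelihood test of edgeR, Benjamini-Hochberg adjusted over all genes). Of all tested genes 39.7% were lower and 33.6% higher. The median log2 fold change was -0.85 over the 42 genes, with quartiles of -0.98 and -0.64, and -0.03 over all genes. A change of 2-fold or more was reached by 10 lower genes and 1 higher gene, against 2.67% and 6.48% of all genes. With library totals in place of TMM these were 6 lower and 2 higher. The 42 genes took 5.37 to 5.42% of the counts of the WT libraries and 3.22 to 3.36% of those of the nascent libraries. The 4 members on chromosome XII fell less, by a median of 0.45 on the log2 scale, than the 38 elsewhere, by a median of 0.87. *ATP14*, the smallest fall of all, is among these 4.

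ATP synthase fell in all of its measured parts, with 15 of 15 genes lower in nascent *ulp2Δ* cells and a median of -0.96. *ATP1* (YBL099W, chromosome II, 37053 to 38690, 1 coding exon) encodes the α subunit of the catalytic head. It had 4909, 4872 and 4628 CPM in WT and 2393, 2476 and 2560 CPM in nascent cells. Its groups were far apart, and the gene changed by log2 -0.96 (standard error 0.04, adjusted *p* = 1.65e-11, edgeR). *ATP2* (YJR121W, chromosome X), the β subunit that carries the catalytic sites, fell from 5614, 5616 and 5502 CPM to 2658, 2718 and 2896 CPM. The largest fall was that of *ATP7* (YKL016C, chromosome XI), subunit d of the stalk that holds the head, which had 1435, 1555 and 1400 CPM in WT and 605.3, 594.3 and 604.6 CPM in nascent cells. This is a 2.43-fold decrease (log2 -1.28, standard error 0.05, adjusted *p* = 5.55e-12, edgeR). *TIM11* and *ATP20*, subunits e and g that join ATP synthase into dimers, changed by -1.12 and -1.25 on the log2 scale. *INH1*, the inhibitor that blocks ATP hydrolysis by the enzyme, changed by -0.54, and *ATP14*, subunit h of the stalk, by -0.35.

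All 4 genes of succinate dehydrogenase, the enzyme shared with the TCA cycle, were lower in nascent *ulp2Δ* cells. *SDH3* (YKL141W, chromosome XI), a membrane anchor, had 2025, 2053 and 1967 CPM in WT and 864, 824.9 and 872.6 CPM in nascent cells, so its libraries were well apart (log2 -1.24, standard error 0.04, adjusted *p* = 2.35e-13, edgeR). The flavoprotein gene *SDH1* changed by -1.01, the other anchor gene *SDH4* by -0.74 and the iron-sulfur subunit gene *SDH2*, on chromosome XII, by -0.46.

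Complex III fell evenly. All 9 of its genes were lower in nascent cells, between -1.03 for *CYT1*, which encodes cytochrome c1, and -0.54 for *QCR6*, a small acidic subunit. The Rieske iron-sulfur protein gene *RIP1* changed by -0.96 and the core protein genes *COR1* and *QCR2* by -0.83 and -0.90. All 3 NADH dehydrogenase genes were lower too, by 0.97 for *NDI1*, 0.67 for *NDE1* and 0.45 for *NDE2* on the log2 scale.

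**Figure D1:**
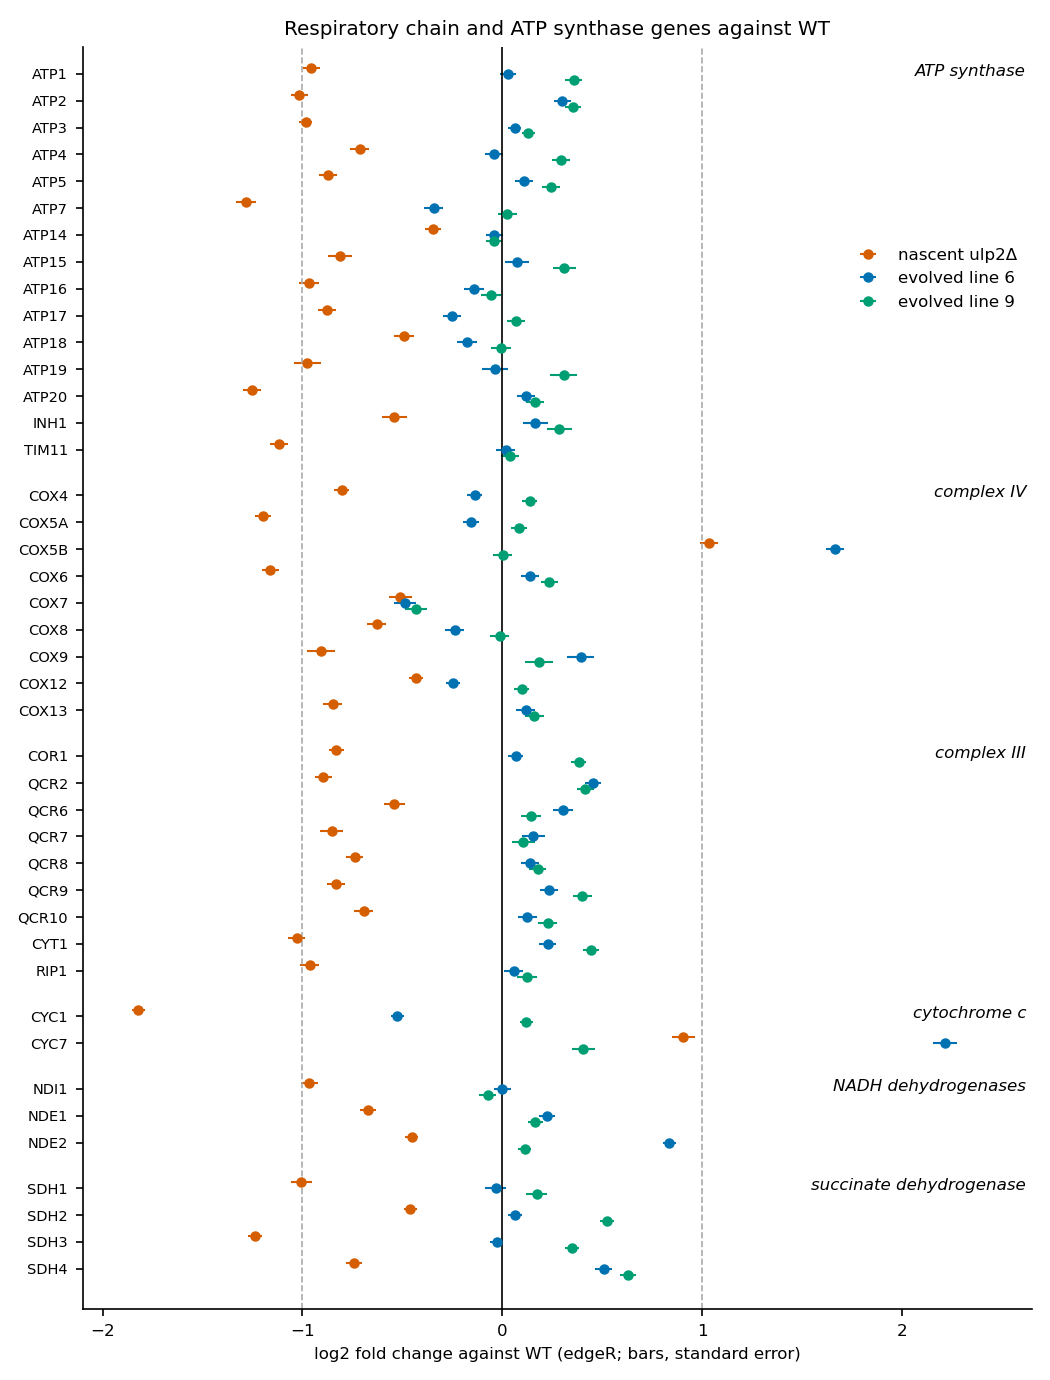
Log2 fold change of each of the 42 genes against WT, with the standard error from edgeR as bars, in nascent *ulp2Δ* cells and evolved lines 6 and 9, grouped by complex. Dashed lines mark a 2-fold change. The nascent points lie left of 0 for 40 genes, and *COX5B* and *CYC7* stand to the right in nascent cells and farther right in line 6.

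In complex IV, 8 of 9 genes were lower in nascent *ulp2Δ* cells and 1 was higher, and the gene that rose is the alternative to the one that fell most. *COX5A* (YNL052W, chromosome XIV) and *COX5B* (YIL111W, chromosome IX) encode interchangeable forms of subunit 5. *COX5A* had 1484, 1463 and 1404 CPM in WT and 606, 623.1 and 665.1 CPM in nascent cells, a 2.30-fold decrease (log2 -1.20, standard error 0.04, adjusted *p* = 1.21e-12, edgeR). *COX5B* had 70.9, 69.9 and 75.8 CPM in WT and 149.7, 151.1 and 142.7 CPM in nascent cells, a 2.05-fold increase (log2 1.03, standard error 0.04, adjusted *p* = 1.97e-11, edgeR). Neither gene's groups overlapped. *COX6*, a nuclear subunit known to be repressed by glucose, changed by -1.16, *COX9* by -0.91, *COX13* by -0.85 and *COX4*, a zinc-binding subunit, by -0.80. *COX8* and *COX12*, both on chromosome XII, changed by -0.63 and -0.43.

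Of the cytochrome c genes, *CYC1* fell more than any of the other 41 genes and *CYC7* rose. *CYC1* (YJR048W, chromosome X) encodes iso-1-cytochrome c, the main form in air. It had 857, 865.2 and 887.3 CPM in WT and 242, 246 and 250.7 CPM in nascent cells, a 3.53-fold decrease (log2 -1.82, standard error 0.03, adjusted *p* = 3.1e-15, edgeR). *CYC7* (YEL039C, chromosome V), iso-2-cytochrome c, had 107.8, 106.8 and 123 CPM in WT and 203.9, 213.9 and 215.2 CPM in nascent cells, a 1.87-fold increase (log2 0.91, standard error 0.06, adjusted *p* = 1.76e-09, edgeR). Together the pair had 2965 ± 73.1 CPM per kilobase of coding sequence (SD, n = 3) in WT, which dropped to 1363 ± 30.4 (SD, n = 3) in nascent cells, so the rise of *CYC7* did not offset the fall of *CYC1*.

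In the evolved line 6 most of these genes lay near WT, and the low-oxygen forms lay far above it. In line 6, 19 of the 42 genes were higher and 10 lower than in WT, and 13 did not pass, against 36.8% and 37.2% of all genes higher and lower, so the higher share was a little above and the lower share below that of all genes. The median was 0.06. With library totals in place of TMM the counts were 11 higher and 16 lower, and the median was -0.04. Only *COX5B* and *CYC7* reached 2-fold, both higher, and 0 genes were lower by 2-fold in edgeR or DESeq2, since the lowest log2 fold change was -0.53, against 4.5% and 10.5% of all genes. *COX5B* had 221.6, 234.7 and 231.2 CPM in line 6, above both WT and the nascent cells, or 3.17-fold its WT level (log2 1.67, standard error 0.05, adjusted *p* = 5.57e-14, edgeR). *CYC7* had 501.7, 536.8 and 531.7 CPM, which is 4.65-fold its WT level (log2 2.22, standard error 0.06, adjusted *p* = 4.83e-14, edgeR). *CYC1* stayed below WT in line 6, at 604.8, 599.9 and 606.8 CPM (log2 -0.53, standard error 0.03, adjusted *p* = 7.21e-10, edgeR). *NDE2* (YDL085W, chromosome IV), the lesser of the external NADH dehydrogenase genes, was also high, with 766.9, 756.5 and 741.6 CPM in line 6 against 424.5, 432.4 and 412.9 CPM in WT (log2 0.83, standard error 0.03, adjusted *p* = 3.86e-12, edgeR).

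The evolved line 9 sat slightly above WT. In line 9, 30 of the 42 genes were higher, 1 was lower and 11 did not pass, against 32.5% of all genes higher and 33.9% lower. The changes were small, with a median of 0.16, and 0 genes reached 2-fold in either direction in edgeR or DESeq2, since the log2 fold changes ran from -0.43 to 0.63, against 1.74% of all genes higher and 4.94% lower. The largest rise was that of *SDH4* (YDR178W, chromosome IV), from 1184, 1193 and 1097 CPM in WT to 1732, 1825 and 1813 CPM (log2 0.63, standard error 0.04, adjusted *p* = 4.06e-09, edgeR). All 4 succinate dehydrogenase genes were higher, and the *SDH2* and *SDH3* changes were 0.52 and 0.35. *COX5B*, at 75.6, 69.4 and 71.96 CPM, overlapped WT (log2 0.00, standard error 0.05, adjusted *p* = 0.987, edgeR), while *CYC7*, at 160.7, 147.8 and 139 CPM, lay a little above it (log2 0.40, standard error 0.06, adjusted *p* = 2.07e-05, edgeR).

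The gene lower in line 9 was *COX7* (YMR256C, chromosome XIII), a small subunit of complex IV, and it was the only member lower than WT in all 3 *ulp2Δ* strains. Without WT replicate 3 the lower genes in line 9 numbered 2, with *ATP16* at -0.12. *COX7* had 1435, 1595 and 1465 CPM in WT, 1067, 1032 and 1057 CPM in nascent cells, 994.7, 1039 and 1172 CPM in line 6 and 1118, 1150 and 1066 CPM in line 9. No library of the 3 strains reached the lowest WT library. The log2 fold changes against WT were -0.51, -0.49 and -0.43 (standard error 0.06 each, adjusted *p* = 8.47e-07, 1.2e-06 and 7.17e-06, edgeR). With TMM scaling neither line differed detectably from nascent cells, with log2 differences of 0.02 for line 6 and 0.08 for line 9 (standard error 0.06 each, adjusted *p* = 0.729 and 0.213, edgeR). With library totals the difference between line 6 and nascent cells was -0.23, and *COX7* was called lower in line 6. The 3 strains share the WT libraries, so these changes against WT are not independent of each other.

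Against nascent cells both lines were higher in nearly every gene. Line 6 was higher in 41 of 42 genes and lower in 0 by edgeR, by DESeq2 and at an unadjusted *p* under 0.05, with *COX7* the one that did not pass, against 40.1% of all genes higher and 38.9% lower. With library totals in place of TMM, 1 gene, *COX7*, was called lower. At 2-fold, 17 genes were higher and 0 lower, against 5.23% and 12.6% of all genes, and with library totals 9 were higher. Line 9 was higher in 39 and lower in 2, *COX5B* and *CYC7*, with *COX7* again not passing, against 38.2% and 37.9%. At 2-fold, 23 were higher and 1, *COX5B*, was lower, against 3.75% and 10.6%, and with library totals 14 were higher. The median log2 fold change over the 42 genes was 0.97 in line 6 and 1.05 in line 9, and both comparisons share the nascent libraries. The steepest difference was that of *CYC1* in line 9, at 975.1, 933.6 and 928 CPM, which is 3.84-fold its nascent level (log2 1.94, standard error 0.03, adjusted *p* = 2.81e-15, edgeR).

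Line 6 was lower than line 9 in 20 genes and higher in 5, and 17 did not pass, against 29.4% and 28.2% of all genes. At 2-fold the difference was confined to 2 genes higher in line 6, *COX5B* and *CYC7*, and 0 lower in edgeR or DESeq2, where the lowest log2 difference was -0.65 in edgeR, against 2.07% and 2.35% of all genes. The other 3 higher in line 6 were *NDE2*, *COX9* and *QCR6*, by 0.72, 0.21 and 0.16 on the log2 scale. The genes lower in line 6 were led by *CYC1* (log2 -0.65, standard error 0.03, adjusted *p* = 1.91e-10, edgeR) and *SDH2* (log2 -0.46, standard error 0.03, adjusted *p* = 1.72e-08, edgeR). *ATP1* differed by -0.33, *COR1* by -0.32 and *SDH3* by -0.38, while *ATP2* did not pass at -0.05.

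The multi-subunit complexes fell by similar amounts in nascent cells, and the cytochrome c genes did not move together. Each library's median difference from the WT mean, over the genes of a complex and in log2 CPM, lay between -0.999 and -0.897 in the 3 nascent libraries for ATP synthase, -0.905 and -0.834 for succinate dehydrogenase, -0.884 and -0.772 for complex III, -0.852 and -0.755 for complex IV, and -0.705 and -0.611 for the NADH dehydrogenases. For cytochrome c it lay between -0.493 and -0.428, midway between *CYC1*, which fell, and *CYC7*, which rose. The ranges of neighbouring sets in that order overlapped up to complex IV, and those of the NADH dehydrogenases and of cytochrome c did not overlap their neighbours. In line 6 the same value was -0.161 to -0.091 for complex IV, below every WT library, 0.180 to 0.225 for complex III, above every WT library, and 0.817 to 0.861 for cytochrome c, while ATP synthase lay between -0.036 and 0.053. With library totals the median log2 fold change in line 6 went from -0.14 to -0.24 for complex IV, from 0.15 to 0.053 for complex III and from 0.016 to -0.086 for ATP synthase. The complex IV value rests partly on *COX8* and *COX12*, since without them the median in line 6 was 0.12. The counts in line 6 were 4 higher and 5 lower in complex IV and 7 and 0 in complex III. Of all genes, 36.8% were higher and 37.2% lower in line 6. In line 9 succinate dehydrogenase stood highest, between 0.417 and 0.465. These medians are descriptions and were not tested against each other.

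**Figure D2:**
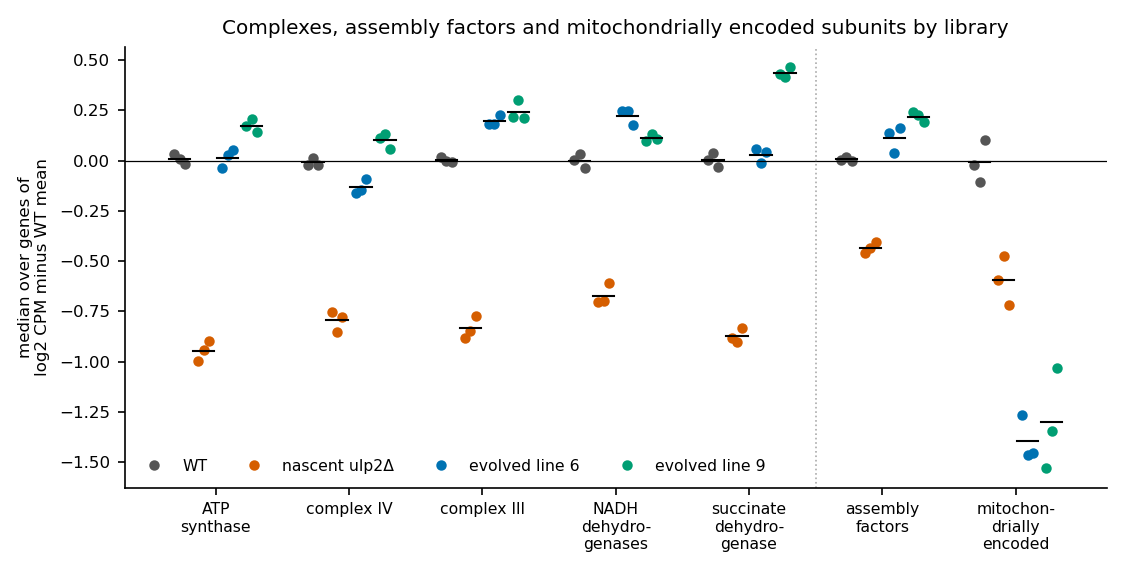
Median over the genes of each set of log2 CPM minus the WT mean, 1 point per library and a line at the mean of 3 libraries. The nascent points lie lowest for the nuclear complexes and assembly factors, between -0.999 and -0.407, and the mitochondrially encoded subunits lie lowest in lines 6 and 9.

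The summed level of the 42 genes, in CPM per kilobase of coding sequence, was 100430 to 103570 in the WT libraries, 57361 to 60128 in nascent cells, 103740 to 109440 in line 6 and 113920 to 116510 in line 9. Nascent cells lay far below and line 9 above WT, and line 6 lay just above it, an order that turned with library totals, where the log2 difference of line 6 from WT was -0.05 in place of 0.05. On this scale *COX7* was the most abundant in WT, with 8187 ± 465.7 CPM per kilobase (SD, n = 3), followed by *ATP15*, *QCR7* and *COX9*, and *COX5B* was the least, with 158.3 ± 6.88 (SD, n = 3). The division by coding length raises short genes in this order. *ATP15*, with 189 coding bases, had a WT mean of 1002.5 CPM and 5304 CPM per kilobase. *ATP2*, with 1536 coding bases, had 5577 CPM and 3631 CPM per kilobase.

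The pairs of alternative genes shifted in composition as well as in level. *COX5B* made up 4.62, 4.62 and 5.18% of the summed CPM per kilobase of *COX5A* and *COX5B* in WT, 20.02, 19.7 and 17.9% in nascent cells, 14.8, 15.7 and 14.97% in line 6 and 4.65, 4.39 and 4.62% in line 9. Nascent cells and line 6 therefore lay apart from WT and line 9, which overlapped. *CYC7* made up 10.8, 10.6 and 11.8% of the cytochrome c pair in WT, 44.8, 45.6 and 45.3% in nascent cells, 44.5, 46.3 and 45.8% in line 6 and 13.7, 13.3 and 12.6% in line 9. Its share overlapped between nascent cells and line 6, whereas the level of the pair was far apart. In nascent cells the pair had 1363 ± 30.4 CPM per kilobase (SD, n = 3), and in line 6 it had 3360 ± 52.4 (SD, n = 3). *NDE2* rose from 21.92 to 21.97% of its pair with *NDE1* in the WT libraries to 24.1 to 25.5% in nascent cells and 29.8 to 30.4% in line 6, and was 20.7 to 21.8% in line 9.

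The log2 ratio of the first to the second gene of each pair was compared in 18 ways, 3 pairs by 6 comparisons, with a two-sided exact permutation test. With 3 libraries against 3 its smallest possible *p* is 0.1, so no comparison can pass 0.05. For *COX5A* to *COX5B* the log2 ratio differed by -2.23 between nascent cells and WT (exact permutation test, *p* = 0.1, adjusted *p* = 0.113), and that of *CYC1* to *CYC7* by -2.73 (the same *p*), with no overlap of libraries. The 2 comparisons that did not reach the smallest *p* were *COX5A* to *COX5B* in line 9 against WT (difference 0.08, exact permutation *p* = 0.6) and *CYC1* to *CYC7* in line 6 against nascent cells (difference -0.02, exact permutation *p* = 0.7). The members of these pairs are related in sequence, and how reads that match more than 1 gene were counted is not given in the sources used here.

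**Figure D3:**
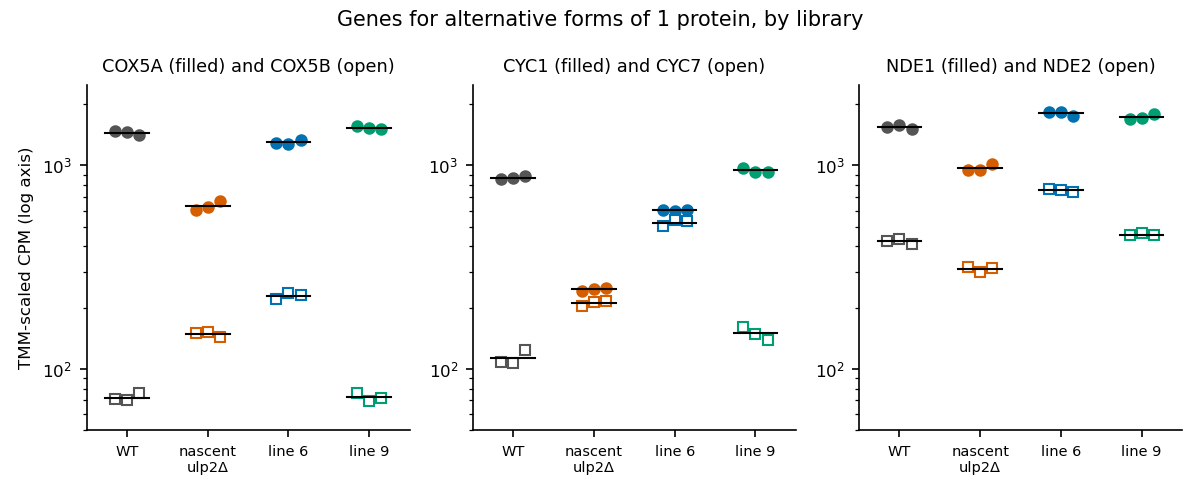
TMM-scaled CPM on a log axis in each of the 12 libraries for *COX5A* and *COX5B*, *CYC1* and *CYC7*, and *NDE1* and *NDE2*, with filled circles for the first gene, open squares for the second and lines at the mean of 3 libraries. In nascent cells the *CYC1* points fall close to the *CYC7* points, from 857 to 887.3 CPM in WT to 242 to 250.7 CPM.

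The sequences before *COX5A* and *COX5B* show where the searched letters stand in the pair that moved in opposite directions. Each run is 200 bases, from 250 to 51 bases before the start codon, 5′ to 3′ on the strand of the gene in R64 (sacCer3). Capitals mark CCAAT or ATTGG and ATTGTT or its reverse complement AACAAT, the core of sites bound by Rox1, a repressor of genes for low oxygen.
COX5A (chrXIV:531475-531674, plus strand): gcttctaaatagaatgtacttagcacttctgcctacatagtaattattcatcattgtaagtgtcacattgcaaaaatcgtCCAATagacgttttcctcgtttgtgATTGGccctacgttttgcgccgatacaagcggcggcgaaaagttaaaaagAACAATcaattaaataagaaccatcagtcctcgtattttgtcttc
COX5B (chrIX:154972-155171, plus strand): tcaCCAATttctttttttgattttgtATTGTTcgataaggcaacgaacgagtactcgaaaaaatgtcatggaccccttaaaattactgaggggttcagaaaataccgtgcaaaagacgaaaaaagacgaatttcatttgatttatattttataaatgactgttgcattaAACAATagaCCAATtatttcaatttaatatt
Both runs hold each of these motifs on at least 1 strand. Across the 42 windows of 300 bases ATTGTT was found in 17, 40.5%, against 35.2% of all windows. Within these windows, a match to a longer Hap1 site was found only before *QCR6*, against 8 of the 6001 windows.

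The genes of the activators and of Rox1 were followed as a list of 6. *HAP4* (YKL109W, chromosome XI) had 1062, 1032 and 1044 CPM in WT, 738.7, 745.9 and 811 CPM in nascent cells, 1931, 1988 and 1866 CPM in line 6 and 1651, 1568 and 1693 CPM in line 9. No group overlapped another, in the order nascent cells, WT, line 9 and line 6. The log2 fold changes against WT were -0.45, 0.88 and 0.65 in nascent cells, line 6 and line 9 (standard error 0.04 each, adjusted *p* = 1.75e-07, 4.94e-11 and 4.94e-09, edgeR). *HAP3* and *HAP5*, subunits that bind DNA with Hap2, changed by -0.18 and -0.13 in nascent cells and by 0.33 and 0.27 in line 9. *HAP2* was the 1 gene of the list that did not pass in nascent cells. In line 6 the log2 fold changes of the 6 genes ran from 0.09 to 0.88, and 1 gene did not pass. *HAP1*, an activator that responds to heme and lies on chromosome XII, was higher in all 3 strains, by 0.66 in nascent cells and by 0.26 and 0.35 in lines 6 and 9. *ROX1* had 237, 268.4 and 255.9 CPM in WT, 199.3, 189.8 and 201.6 CPM in nascent cells, 336.3, 340.6 and 360.6 CPM in line 6 and 222.8, 217.2 and 216.3 CPM in line 9. The *ROX1* mRNA was thus highest in line 6, where *COX5B* and *CYC7* were also highest. Rox1 protein and its binding were not measured, and a link between these levels was not tested. Of the list, 1 gene was higher and 4 were lower in nascent cells, 5 and 0 in line 6, and 5 and 1 in line 9, and the medians were -0.16, 0.30 and 0.30. The shares of all genes higher and lower were 33.6% and 39.7% in nascent cells, 36.8% and 37.2% in line 6, and 32.5% and 33.9% in line 9.

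**Figure D4:**
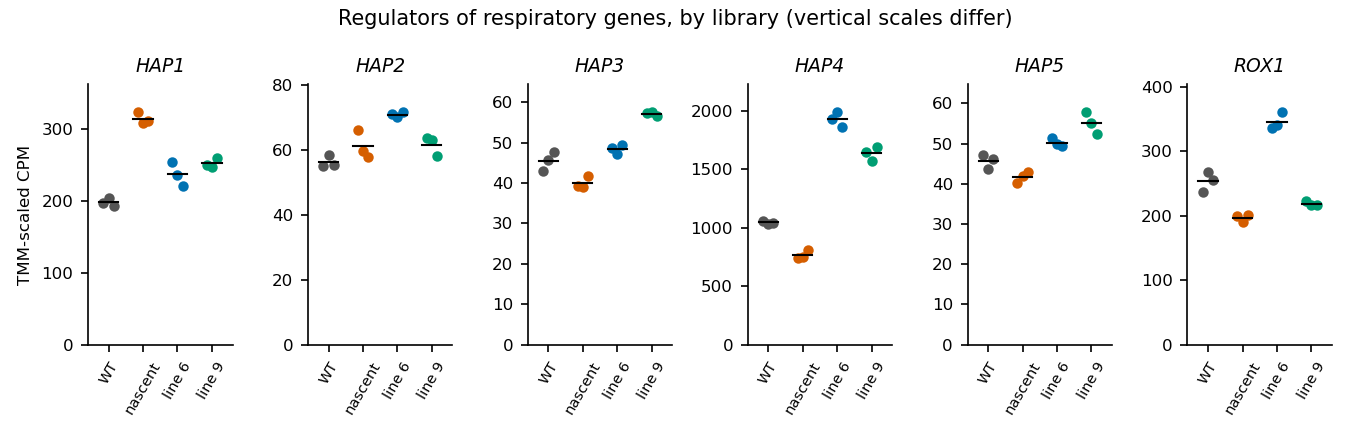
TMM-scaled CPM of *HAP1*, *HAP2*, *HAP3*, *HAP4*, *HAP5* and *ROX1* in each of the 12 libraries, with lines at the mean of 3 libraries and a vertical axis from 0 in each panel. *HAP4* runs from 738.7 to 811 CPM in nascent cells to 1866 to 1988 CPM in line 6.

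Assembly factors, which insert cofactors and join subunits, were mostly lower in nascent cells, by less than the structural genes in the median. Of 35 such genes, 27 were lower and 3 higher in nascent cells, with a median of -0.44, 9 lower and 18 higher in line 6 (median 0.12), and 2 lower and 21 higher in line 9 (median 0.23). Of all genes, 39.7% were lower and 33.6% higher in nascent cells, 37.2% and 36.8% in line 6, and 33.9% and 32.5% in line 9. The 3 higher in nascent cells were *COX19* and *MSS51* on chromosome XII, by 0.98 and 0.57, and *CYC3* on chromosome I, by 0.58, named here after their values were seen. Without chromosomes I and XII, the median of the other 30 in the nascent libraries lay between -0.51 and -0.46. *CBP4*, a complex III assembly factor, fell most, by 1.10 on the log2 scale. *SDH5*, which helps attach the flavin cofactor to Sdh1, changed by -0.73 in nascent cells and 0.58 in each line.

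The subunits encoded in mitochondrial DNA were lower in the lines than in WT. Of 7 such genes, 5 were lower and 1 higher in nascent cells, and 7 of 7 were lower in each line, and the medians for nascent cells and lines 6 and 9 were -0.63, -1.46 and -1.37. Of all genes, 39.7%, 37.2% and 33.9% were lower. *COX1*, the catalytic subunit of complex IV, had 36.8, 31.2 and 33.0 CPM in WT, 48.7, 49.7 and 49.3 CPM in nascent cells, 13.97, 14.99 and 16.7 CPM in line 6 and 15.4, 15.1 and 19.0 CPM in line 9. It was the gene that rose in nascent cells, by 0.55, and was singled out after its values were seen. It fell in line 6 and line 9, with log2 fold changes of -1.14 and -1.03. *OLI1*, subunit 9 of the ATP synthase rotor, had 141, 153.2 and 144.2 CPM in WT, 86.1, 86.8 and 80.1 CPM in nascent cells, 46.7, 41.6 and 53.6 CPM in line 6 and 45.3, 51.75 and 67.5 CPM in line 9. Against nascent cells, 6 of the 7 were lower in each line, against 38.9% and 37.9% of all genes for lines 6 and 9, whereas the nuclear subunits of the same complexes were mostly higher. In these samples, fewer mitochondrial genomes and fewer transcripts from each cannot be told apart. How RNA was selected for the libraries is not given in the sources used here. Whether these transcripts were recovered alike in all groups was not tested.

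Of 11 accessory proteins and paralogs, 8 were lower and 2 higher in nascent cells (median -0.86), 3 and 4 in line 6 (median 0.04), and 4 and 3 in line 9 (median 0.04). In the lines these shares lie near those of all genes, 37.2% lower and 36.8% higher in line 6 and 33.9% and 32.5% in line 9, and in nascent cells 39.7% of all genes were lower and 33.6% higher. *PET9*, the main ADP/ATP carrier of the inner membrane, changed by -0.96 on the log2 scale in nascent cells, like the median of the ATP synthase genes. It changed by 0.04 and 0.49 in lines 6 and 9. In line 9 this was above every ATP synthase gene, of which the highest was 0.36. *STF1* and *COX26*, small proteins bound to ATP synthase and complex IV, changed by -1.41 and -1.28 in nascent cells.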

How the data were processed

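Whole-number counts per gene were deposited without normalization. The authors trimmed reads with Trim Galore (0.5.0), mapped them to sacCer3 with HISAT2 (2.1.0) and quantified SGD gene models with StringTie (1.3.3b). Whether strand was used is not given in the sources used here. Of 7114 rows, 6 unnamed loci (0.0826 to 0.173% of counts) were left out. Symbols and positions came from R64 for 6011 of 7108 IDs. No member overlaps another gene of that annotation, and the 1097 unmatched IDs were not checked.

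Groups came from the sample titles. In edgeR 4.0.16 (R 4.3.3), counts were filtered with filterByExpr, scaled by TMM and fitted for all 12 libraries together with the quasi-likelihood test, and *p*-values were adjusted by Benjamini-Hochberg over 6372 genes. The script was tested on simulated data. Genes were called at an adjusted *p* under 0.05, and separately with a change of 2-fold or more. Replicate libraries differed beyond sampling noise. Alternatives were DESeq2 1.42.0, other scalings and filters, a replicate block and leaving out each library. Named genes included the extremes of each complex, the paired isoforms and members with opposite directions. Other members and genes of the lists were also named, some of them after their values were seen. The members and lists were chosen with earlier results of these data known.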

Additional observations from a re-analysis of the deposited data

Results flagged for a closer look

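Of the 42 genes and the 59 genes of the lists, 6 differed from WT in opposite directions in lines 6 and 9, each called in both lines. For these 6 the direct comparison of the lines was called as well (quasi-likelihood test of edgeR, Benjamini-Hochberg adjusted). Among the 42 genes these were *CYC1*, with a line 6 to line 9 log2 difference of -0.65 (adjusted *p* = 1.91e-10), *COX12* with -0.34 (adjusted *p* = 1.11e-06) and *COX4* with -0.28 (adjusted *p* = 1.22e-05), all below WT in line 6 and above it in line 9. Among the lists, *SDH9*, a paralog of *SDH1*, had -0.85 (adjusted *p* = 7.38e-09), *ROX1* had 0.66 (adjusted *p* = 4.84e-09) and *SHH4*, a paralog of *SDH4*, had 1.27 (adjusted *p* = 1.19e-11). *ROX1* and *SHH4* were above WT in line 6 and below it in line 9. Calls against WT were common. Line 6 had 36.8% of all tested genes called above WT and 37.2% below, and line 9 had 32.5% and 33.9%. Opposite calls were not counted over all tested genes, so whether 6 is more than usual was not tested. Both changes use the same WT libraries, so the call between the lines adds little to opposite calls against WT.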

How the results depend on the processing

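Library totals in place of TMM moved the most values. They moved the median of all genes to 0.12 in nascent cells and -0.11 in line 6 against WT, and to -0.25 in line 6 and -0.18 in line 9 against nascent cells. The median of the 42 genes became -0.70, -0.038 and 0.13 in nascent cells, line 6 and line 9 against WT, 0.72 and 0.87 in lines 6 and 9 against nascent cells, and -0.18 between the lines. Less the median of all genes, these were -0.83, 0.07, 0.17, 0.97, 1.05 and -0.11. With totals, 2 genes were higher and 6 lower by 2-fold in nascent cells, 11 higher and 16 lower in line 6, 2 lower in line 9, 3 higher in line 6 than in line 9, and, against nascent cells, 1 lower and 9 higher by 2-fold in line 6 and 14 higher by 2-fold in line 9. The shares of all genes called with totals, or with the replicate block below, are not given here. Such counts therefore show only how the calls moved. The summed log2 differences against WT in nascent cells, line 6 and line 9 became -0.66, -0.055 and 0.14 for all 42 genes and -0.65, 0.089 and 0.22 for complex III. In nascent cells and line 6 they became -0.70 and -0.10 for ATP synthase, -0.57 and -0.18 for complex IV, -0.97 and 0.078 for cytochrome c, -0.61 and 0.13 for the NADH dehydrogenases and -0.74 and 0.029 for succinate dehydrogenase. *ATP1* turned to -0.074 in line 6 against WT, and *COX7* to -0.23 and *COX12* to -0.064 in line 6 against nascent cells. TMM factors without chromosomes I, XII and mitochondrial genes gave medians of -0.79 in nascent cells and of 0.90 and 0.98 for lines 6 and 9 against them. Without members on chromosomes I and XII, the medians were 0.091 in line 6, 1.10 for line 9 against nascent cells and -0.10 between the lines, and complex IV turned to 0.12 in line 6. DESeq2 gave 0.19 in line 9 and -0.12 between the lines, as did its size factors in edgeR, and the latter value was -0.12 with no filter and with only 2 groups fitted. Leaving out 1 library gave medians of 0.043 to 0.081 in line 6, 0.15 to 0.18 in line 9, 0.92 to 0.98 for line 6 against nascent cells and -0.15 to -0.084 between the lines, and 1 to 2 genes lower in line 9, the second without WT replicate 3. With a replicate block, 40 genes were lower in nascent cells, 18 higher in line 6 and 30 higher in line 9. With each group's mean subtracted from log2 CPM, same-numbered libraries of different groups correlated by -0.14 to 0.11. These values show little shared deviation by replicate number and cannot settle whether the samples were paired. The causes of these moves were not tested.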
